A study of Mus musculus with 6 samples.

Results

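The subunits of the respiratory chain and of ATP synthase were followed in erythroblasts sorted from mouse bone marrow. Genes were taken by symbol, from the probe sets that the platform annotation ties to 1 gene: the Nduf subunits of complex I, Sdha to Sdhd of complex II, the Uqcr genes and Cyc1 of complex III, the Cox4 to Cox8 genes of complex IV and the Atp5 genes of ATP synthase. This gave 82 of the 18193 genes measured, of which 33 belonged to complex I, 4 to complex II, 9 to complex III, 19 to complex IV and 17 to ATP synthase. Ndufa4 and Ndufa4l2 carry complex I names and were counted with complex IV, where the NDUFA4 protein resides. Ndufa11, Ndufb4b, Ndufb4c and Ndufs6 were not analysed here, because their probe set named several genes.

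The first group was 3 knockout mice (KO) lacking miR-144/451, the second 3 wild-type mice (WT), with 1 Affymetrix Mouse Genome 430 2.0 array per mouse and no treatment in either. From both, large bone marrow cells (high forward scatter) positive for Ter119, an erythroid surface antigen, and CD71, the transferrin receptor, were sorted into Trizol LS. The arrays are named by their title numbers, KO 493, 548 and 551 and WT 497, 504 and 550. A label for a microRNA construct repeats these numbers, and what they count is not stated. Strain, age, sex and how the deletion was made are not given in the sources used here. Values are log2 probe-set intensities made with RMA, and a difference is the KO mean minus the WT mean on that scale. The series' design gives 3 mice per group, so the mouse was taken as the replicate, and p-values measure the spread between these arrays. RNA was measured, not protein, assembled complex or respiration.

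Electrons from NADH enter the chain at complex I and those from succinate at complex II, and both pass through coenzyme Q to complex III, then through cytochrome c to complex IV, which reduces oxygen. Complexes I, III and IV pump protons, and ATP synthase uses the gradient to make ATP. Erythroblasts carry many mitochondria, the site of the first and last steps of haem synthesis, and lose them as they mature into red cells. Most subunits are encoded in the nucleus, a few in mitochondrial DNA.

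The deleted locus lies on chromosome 11 and gives the microRNAs whose absence defines the KO group. Their mature sequences are shown because they state what the KO cells lack (RefSeq, GRCm38.p6, plus strand, 5′ to 3′, with the seed, bases 2 to 8, in capitals). The seeds differ from each other. The arrays do not report mature microRNAs here, so genotype rests on the labels.
mmu-miR-144-3p (chr11:78073047-78073066): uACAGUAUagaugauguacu
mmu-miR-451a (chr11:78073186-78073207): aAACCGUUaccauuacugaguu

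Promoter windows are printed for Atp5g2, Cox5a and Ndufb5, the subunit genes with the smallest p-values. Each runs from 250 bases before to 50 bases after the annotated start (RefSeq, GRCm38.p6, 5′ to 3′ on the gene's strand). Capitals mark matches, on either strand, to letters known for factors that act on nuclear genes of mitochondrial proteins: GCATGCG for NRF1, CCGGAAG for GABPA and ANATGGC for YY1. In Atp5g2 the NRF1 letters stand on both strands at overlapping positions, -41 and -40 from the start. The Cox5a window holds none of the 3 motifs, and the Ndufb5 window holds the YY1 letters at -224 and -72.
Atp5g2 promoter (chr15:102670998-102671297, minus strand): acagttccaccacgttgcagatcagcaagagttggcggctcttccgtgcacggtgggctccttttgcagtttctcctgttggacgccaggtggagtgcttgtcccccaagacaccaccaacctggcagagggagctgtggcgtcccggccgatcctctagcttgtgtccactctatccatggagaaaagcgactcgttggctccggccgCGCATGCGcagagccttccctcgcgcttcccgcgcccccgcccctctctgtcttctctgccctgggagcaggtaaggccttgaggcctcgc
Cox5a promoter (chr9:57520982-57521281, plus strand): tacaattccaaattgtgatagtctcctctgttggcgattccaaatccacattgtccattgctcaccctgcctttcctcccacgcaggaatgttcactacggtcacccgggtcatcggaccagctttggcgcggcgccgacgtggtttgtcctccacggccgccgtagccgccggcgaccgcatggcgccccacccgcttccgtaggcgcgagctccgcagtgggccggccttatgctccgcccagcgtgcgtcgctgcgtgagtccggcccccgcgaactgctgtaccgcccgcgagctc
Ndufb5 promoter (chr3:32736813-32737112, plus strand): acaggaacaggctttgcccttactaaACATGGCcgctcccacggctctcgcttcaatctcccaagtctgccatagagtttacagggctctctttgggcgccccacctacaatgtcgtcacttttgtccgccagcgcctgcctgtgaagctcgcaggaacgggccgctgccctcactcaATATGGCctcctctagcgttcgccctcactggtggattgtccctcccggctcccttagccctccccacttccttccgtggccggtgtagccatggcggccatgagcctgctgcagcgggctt

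Windows were found for 66 of the 82 subunit genes, 71 windows in all. The NRF1 letters stood in 14.1% of them, against 3.58% of the 32851 windows of all genes. For the GABPA letters the shares were 23.9% of subunit windows and 8.86% of all windows, and for the YY1 letters 26.8% and 15.1%. At least 1 of the 3 motifs stood in 53.5% of subunit windows and in 25.1% of all. The YY1 letters were in 37.5% of the 32 complex I windows and the GABPA letters in 33.3% of the 18 ATP synthase windows. In the 5 complex III windows the NRF1 and GABPA letters each had a share of 40%. In the 3 complex II windows these shares were 33.3% and 66.7%. Some other shares were lower. In complex I the NRF1 letters were in 6.25% and the GABPA letters in 12.5%. The YY1 letters were in 15.4% of the 13 complex IV windows and in 0 of the 5 complex III windows. A match is a description of the letters, not a bound site.

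Transcripts of these subunits stood slightly above WT in KO erythroblasts, and none passed the test. Of the 82 genes, 66 had a difference above 0, 15 one below 0 and Cox4i1 one of 0.00, against 43.7% above 0 among all genes. The median difference was 0.11 in the subunit genes and -0.04 in all genes, with a range of -0.70 to 0.67 and a median standard error of 0.10. At a limma adjusted p under 0.05, 0 of the 82 genes were called in either direction, where the background was 0.236% of all genes called higher and 0.148% called lower. Unadjusted p-values were under 0.05 for 8 subunit genes above WT (9.76%; 8.34% of all genes) and for 1 below (12.7% of all genes), so these counts lay near or under the background.

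The groups did not overlap, every KO array above every WT array, in 31 of the 82 genes (37.8%), against 12.5% of all genes. The opposite order held for 1 (1.22%), against 16.2% of all genes. Most subunit probe sets are bright, so they were also set beside the 1777 other genes with a mean of 11 or above. Of those, 48.6% were above 0 and their median was -0.00, while 56 of the 64 subunit genes at that level were above 0, with a median of 0.12. The groups did not overlap, with KO higher, in 27 of those 64 subunit genes and in 18.3% of the other bright genes. The 95% interval lay within 1.5-fold in both directions (0.58 on the log2 scale) for 71 of the 82 genes, which bounds the size of any change there. So it did for 10329 of all 18193 genes. At a mean of 11 or above it did for 57 of 64 subunit genes and for 1596 of the 1777 others.

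The call depended on how variances were pooled. With limma's intensity trend and robust prior, 8 subunit genes passed an adjusted p under 0.05 and all were higher in KO (9.76%), against 4.42% of all genes called in either direction, 2.37% higher and 2.04% lower. They were Atp5g2, Cox5a, Ndufa6, Ndufb5, Atp5d, Ndufa13, Ndufs3 and Atp5e, with adjusted p-values from 0.00221 for Atp5g2 to 0.0486 for Atp5e. Ndufa13 and Ndufs3 were named after their values were seen, since they complete this count. All 8 had a mean of 11 or above. At that level, 12.5% of the 64 subunit genes and 5.23% of the 1777 other genes passed this fit with KO higher. In the test used for calls, the smallest adjusted p among the 82 was 0.0682, for Atp5g2.

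**Figure D1:**
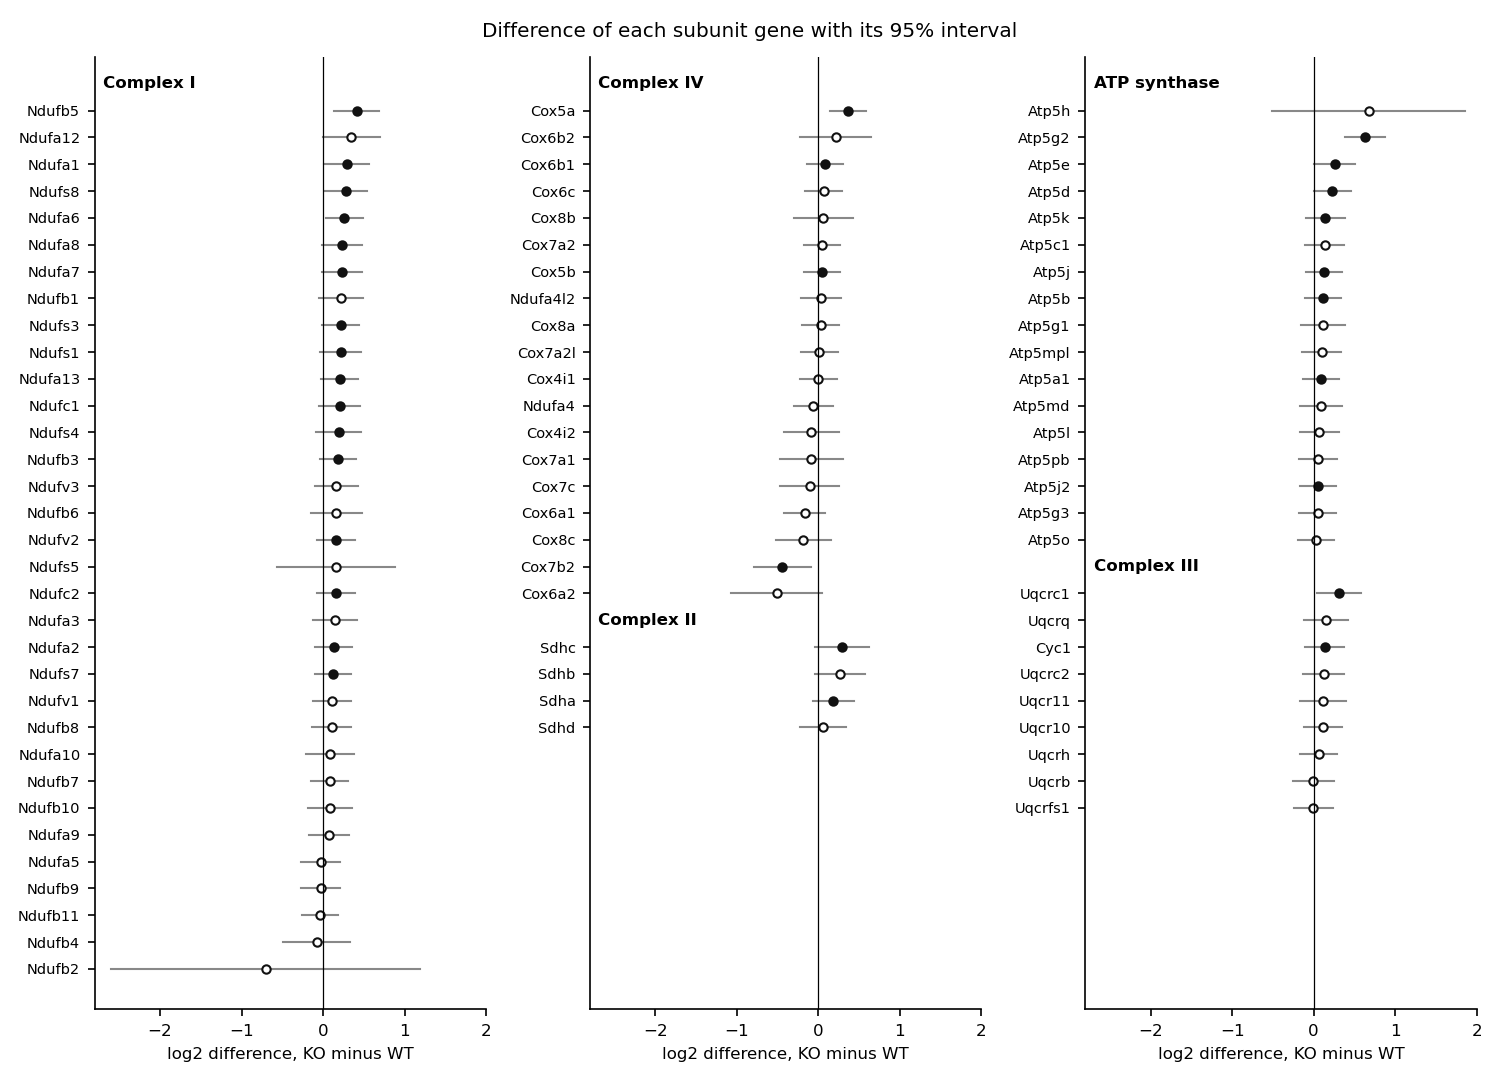
Log2 difference, KO minus WT (x axis), of each of the 82 subunit genes, by complex, with limma's 95% interval (line, n = 3 per group). Filled points mark genes whose KO and WT arrays do not overlap, 32 in all, and open points those that overlap; ATP synthase genes all lie above 0, complex IV genes lie on both sides, and Ndufb2 and Atp5h have the widest intervals.

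Complex I takes electrons from NADH and is the largest assembly of the chain. Of its 33 genes, 28 were above 0 and 5 below, with a median of 0.16. In 16 (48.5%) the KO arrays all lay above the WT arrays, against 12.5% of all genes and 18.3% of other bright genes. The 6 measured core subunits were Ndufs1, Ndufs3, Ndufs7, Ndufs8, Ndufv1 and Ndufv2. They are conserved from bacteria, and most hold flavin or iron-sulphur centres. All 6 were above 0, with a median of 0.19. The 27 accessory subunits had a median of 0.16, with 22 above 0. None was called.

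Ndufb5, an accessory subunit of the membrane arm, had the smallest p of the complex. Its log2 intensities were 11.94, 11.95 and 12.10 in KO 493, 548 and 551, and 11.49, 11.74 and 11.52 in WT 497, 504 and 550. Every KO array was above every WT array, with WT 504 nearest to them. The difference was 0.41 ± 0.12 (SE, n = 3 per group), with an adjusted p of 0.144 in limma, and a second probe set gave 0.42. Ndufa6, an accessory subunit with an LYR motif, had 12, 11.95 and 12.05 in KO and 11.75, 11.72 and 11.74 in WT. Both groups were tight and apart, by 0.26 ± 0.09 (adjusted p = 0.201 in limma).

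Ndufs8, a core subunit that carries iron-sulphur clusters, had 11.43, 11.53 and 11.61 in KO against 11.25, 11.34 and 11.13 in WT. The groups did not overlap, with a difference of 0.28 ± 0.11 (limma adjusted p = 0.225), and its 6 probe sets gave 0.02 to 0.31. Ndufa1, an X-linked accessory subunit, had 11.33, 11.44 and 11.59 in KO against 11.14, 11.28 and 11.07 in WT. Here KO 493 and WT 504 came closest, and the difference was 0.29 ± 0.12 (limma adjusted p = 0.239). Ndufa12, an accessory subunit of the matrix arm, differed by 0.35 ± 0.15 with overlapping groups (limma adjusted p = 0.256), and its 4 probe sets ran from -0.00 to 0.85.

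The core subunit Ndufs1, with its iron-sulphur clusters, had 11.08, 11.22 and 11.22 in KO against 10.86, 11.04 and 10.97 in WT, a difference of 0.22 ± 0.11 without overlap. Ndufv1, which binds the flavin and NADH, had 12.43, 12.57 and 12.53 in KO against 12.36, 12.43 and 12.41 in WT. Its difference was 0.11 ± 0.10, and KO 493 equalled WT 504. The negative end of the complex was Ndufb2, at -0.70 ± 0.80, a value set by 1 array and described below.

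Complex II is succinate dehydrogenase, shared by the chain and the tricarboxylic acid cycle, and all 4 of its genes were above 0, with a median of 0.22. The flavin subunit Sdha had 11.65, 11.81 and 11.74 in KO and 11.45, 11.58 and 11.63 in WT. The groups were adjacent without overlap, with a difference of 0.18 ± 0.11 (limma adjusted p = 0.390). The iron-sulphur subunit Sdhb had 11.30, 11.55 and 11.64 in KO and 11.19, 11.35 and 11.16 in WT. KO 493 fell below WT 504, and the difference was 0.26 ± 0.13 (limma adjusted p = 0.308).

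Of the membrane anchors, Sdhc had 10.75, 10.38 and 10.33 in KO against 10.26, 10.21 and 10.11 in WT, a difference of 0.29 ± 0.14 (limma adjusted p = 0.302). The groups did not overlap, and KO 493, the lowest or joint lowest KO array in Sdha, Sdhb and Sdhd, was the highest here. Sdhd, with 11.30, 11.30 and 11.43 in KO against 11.17, 11.46 and 11.22 in WT, overlapped and differed by 0.06 ± 0.12.

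Complex III passes electrons from coenzyme Q to cytochrome c. Of its 9 genes, 7 were above 0 and 2 below, with a median of 0.12. In 2 (22.2%) the groups did not overlap, with KO higher, near the 18.3% of other bright genes (12.5% of all genes). The core protein Uqcrc1 led, with 10.09, 10.30 and 10.33 in KO against 9.92, 10 and 9.87 in WT. All KO arrays were above all WT arrays, by 0.31 ± 0.11 (limma adjusted p = 0.204). The catalytic subunit Cyc1, cytochrome c1, had 11.72, 11.86 and 11.81 in KO against 11.61, 11.70 and 11.68 in WT. It also did not overlap, at 0.13 ± 0.10.

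The other core protein, Uqcrc2, differed by 0.12 ± 0.11 with overlapping groups. The Rieske iron-sulphur protein Uqcrfs1 had 10.80, 10.91 and 10.94 in KO against 10.87, 10.96 and 10.83 in WT, fully interleaved, with a difference of -0.00 ± 0.10 and a 95% interval of -0.24 to 0.24. Uqcrb, which lies near the quinone site, was likewise at -0.00 ± 0.10. Of the subunits with redox centres, Cyc1 thus lay above the median of the complex and Uqcrfs1 at its lower end.

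Complex IV, cytochrome c oxidase, was the group whose median lay nearest 0, at 0.01. That median took the other sign without KO 551 (-0.032) and without WT 497 (-0.012). Of its 19 genes, 10 were above 0, 8 below and 1 at 0.00. The KO arrays lay above the WT arrays in 3 genes (15.8%, against 12.5% of all genes) and below them in 1 (5.26%, against 16.2%), so the first count was near the background. Whether complex IV differs from the other complexes was not tested. The 8 isoforms restricted to particular tissues or conditions were Cox4i2, Cox6a2, Cox6b2, Cox7a1, Cox7b2, Cox8b, Cox8c and Ndufa4l2. They had a median of -0.09 with 3 above 0, and the 11 other genes a median of 0.03 with 7 above 0. The sign of the isoform median did not hold, at 0.024 after quantile and 0.0014 after cyclic loess normalization. For the 11 other genes these medians were 0.035 and 0.018.

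Cox5a, a subunit facing the matrix, stood out among these. It had 11.81, 11.92 and 11.88 in KO and 11.48, 11.54 and 11.50 in WT, tight groups that did not overlap. Its difference was 0.36 ± 0.10 (limma adjusted p = 0.132), and its other probe sets gave 0.22 and 0.16. Its structural neighbour Cox4i1, the ubiquitous isoform of subunit IV, had 12.14, 12.17 and 12.25 in KO and 12.17, 12.24 and 12.15 in WT. These values were interleaved, with a difference of 0.00 and a 95% interval of -0.23 to 0.23.

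Cox5b, which binds zinc, had 13.05, 13.10 and 13.07 in KO and 13.04, 13.04 and 13.00 in WT. The groups touched without overlapping, at 0.05 ± 0.09. Cox6b1, a subunit on the intermembrane side, also did not overlap, with 12.83, 12.86 and 12.86 in KO against 12.76, 12.80 and 12.73 in WT, at 0.09 ± 0.09. The further ubiquitous subunits Cox7a2 at 0.05 ± 0.09 and Cox8a at 0.03 ± 0.09 overlapped, as did the supercomplex assembly factor Cox7a2l at 0.01 ± 0.10 and Ndufa4 at -0.06 ± 0.10.

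The liver-type isoform Cox6a1 had 12.18, 12.30 and 12.22 in KO against 12.43, 12.49 and 12.28 in WT. Only KO 548 reached into the WT range, by passing WT 550, and the difference was -0.17 ± 0.11 (limma adjusted p = 0.427). Its second probe set gave -0.04. The heart and muscle isoform Cox6a2 had 7.50, 7.27 and 7.25 in KO against 8.36, 7.44 and 7.75 in WT. WT 497 was the high array and KO 493 overlapped WT 504, with a difference of -0.51 ± 0.23 (limma adjusted p = 0.286).

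Cox7b2, an isoform known from testis, was the only one of the 82 genes with every KO array below every WT array, at 3.26, 3.39 and 3.13 in KO against 3.59, 3.55 and 3.96 in WT. Its difference was -0.44 ± 0.15 (limma adjusted p = 0.183). It lay under the 25th percentile of the probe sets on each array, 4.30 to 4.34 in KO and 4.35 to 4.40 in WT, so its level is not distinguished from background here. The remaining isoforms Cox4i2 (-0.09 ± 0.14), Cox7a1 (-0.09 ± 0.16), Cox8b (0.06 ± 0.15), Cox8c (-0.18 ± 0.14), Ndufa4l2 (0.04 ± 0.10) and Cox6b2 (0.21 ± 0.18) all overlapped.

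**Figure D2:**
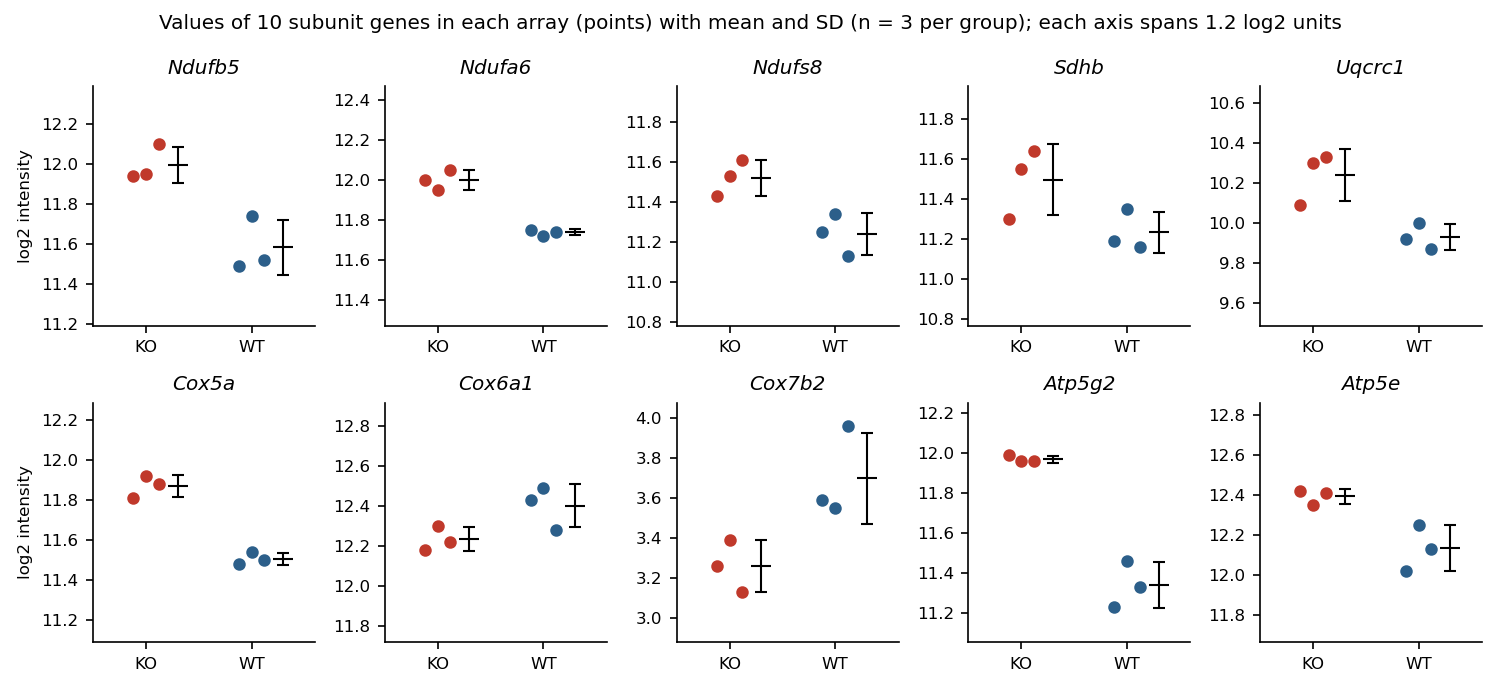
Log2 intensity (y axis, each panel spanning 1.2 units around the gene's own middle) of 10 subunit genes on the 3 KO arrays (red, left) and the 3 WT arrays (blue, right), with mean and SD (n = 3 per group). Within a group the points run by title number; the groups do not overlap for Ndufb5, Ndufa6, Ndufs8, Uqcrc1, Cox5a, Atp5g2, Atp5e and, in the opposite direction, the dim Cox7b2, and they overlap for Sdhb and Cox6a1.

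ATP synthase couples proton flow to ATP synthesis, and all 17 of its genes were above 0, with a median of 0.11. In 8 (47.1%) the groups did not overlap, with KO higher, against 12.5% of all genes and 18.3% of other bright genes. Atp5g2, 1 of the 3 genes whose mature product is subunit c of the proton-driven ring, had the smallest p of all 82 genes. It had 11.99, 11.96 and 11.96 in KO and 11.23, 11.46 and 11.33 in WT, so that the KO arrays agreed within 0.03 while the WT arrays spread. The difference was 0.63 ± 0.10, or 1.55-fold, with a 95% interval of 0.38 to 0.88 and a limma adjusted p of 0.0682. Its dimmer probe sets gave 0.28 and 0.24, both with overlapping groups. The one that gave 0.24 had means of 3.15 in KO and 2.91 in WT. These lay under the 25th percentile of each array (4.30 to 4.40), so its level is not distinguished from background.

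The other subunit c genes had smaller differences, and whether they differ from Atp5g2 was not tested. Atp5g3 had 12.55, 12.65 and 12.60 in KO against 12.50, 12.58 and 12.57 in WT, at 0.05 ± 0.10. Atp5g1 had 11.76, 11.86 and 11.90 in KO against 11.61, 11.88 and 11.70 in WT, at 0.11 ± 0.11. Both overlapped.

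All 5 genes of the catalytic F1 head were above 0, with a median of 0.13, and 4 of them did not overlap. Atp5a1 (alpha) had 12.76, 12.80 and 12.79 in KO against 12.67, 12.71 and 12.70 in WT, and Atp5b (beta) differed by 0.11 ± 0.09. The alpha subunit's groups were narrow and apart, yet the difference was only 0.09 ± 0.09. Atp5e (epsilon) had 12.42, 12.35 and 12.41 in KO against 12.02, 12.25 and 12.13 in WT, at 0.26 ± 0.11 (limma adjusted p = 0.240). Atp5d (delta) had 12.46, 12.54 and 12.45 in KO against 12.24, 12.22 and 12.31 in WT, at 0.23 ± 0.10 (limma adjusted p = 0.254).

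Atp5c1, the rotating gamma subunit, was the F1 gene that overlapped, at 0.13 ± 0.10. The 9 genes of the membrane part and stalk other than subunit c had a median of 0.09. Among them Atp5k, the small subunit e, had 11.96, 11.93 and 12.03 in KO against 11.84, 11.90 and 11.75 in WT, without overlap, at 0.14 ± 0.10. Atp5o, which joins the stalk to the head, was the lowest of the 17, at 0.03 ± 0.09 with overlapping groups.

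The complexes were also read array by array, as the median over their genes of the deviation from each gene's mean over the 6 arrays. For complex I the medians were 0.02, 0.08 and 0.12 in KO 493, 548 and 551, and -0.11, -0.02 and -0.14 in WT 497, 504 and 550. For ATP synthase they were 0.06, 0.06 and 0.07 in KO, and -0.07, -0.01 and -0.10 in WT. In both, KO arrays lay above WT arrays, and WT 504 stood closest to KO.

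Complex II had -0.00, 0.10 and 0.11 in KO and -0.16, -0.04 and -0.15 in WT, again without overlap. Complex III had 0.01, 0.03 and 0.09 in KO and -0.08, 0.03 and -0.12 in WT, and complex IV -0.05, 0.02 and 0.04 in KO and -0.03, 0.03 and -0.03 in WT. These 2 complexes overlapped, through WT 504 in complex III and KO 493 and WT 504 in complex IV. Over all genes the medians were -0.04, -0.01 and 0.00 in KO and 0.02, -0.02 and 0.05 in WT.

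The order of arrays inside the groups was uneven among subunits. WT 504 was the highest WT array in 57 of the 82 genes, compared with 4951 of all 18193. KO 551 was the highest KO array in 43 and KO 493 the lowest in 46, compared with 6392 and 7274 of all 18193. Without WT 504 the count above 0 was 73 of 82, and without KO 493 it was 71. Leaving out each of the 6 arrays in turn gave counts from 64 to 73 and medians from 0.09 to 0.15. No gene was called in any of these fits.

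**Figure D3:**
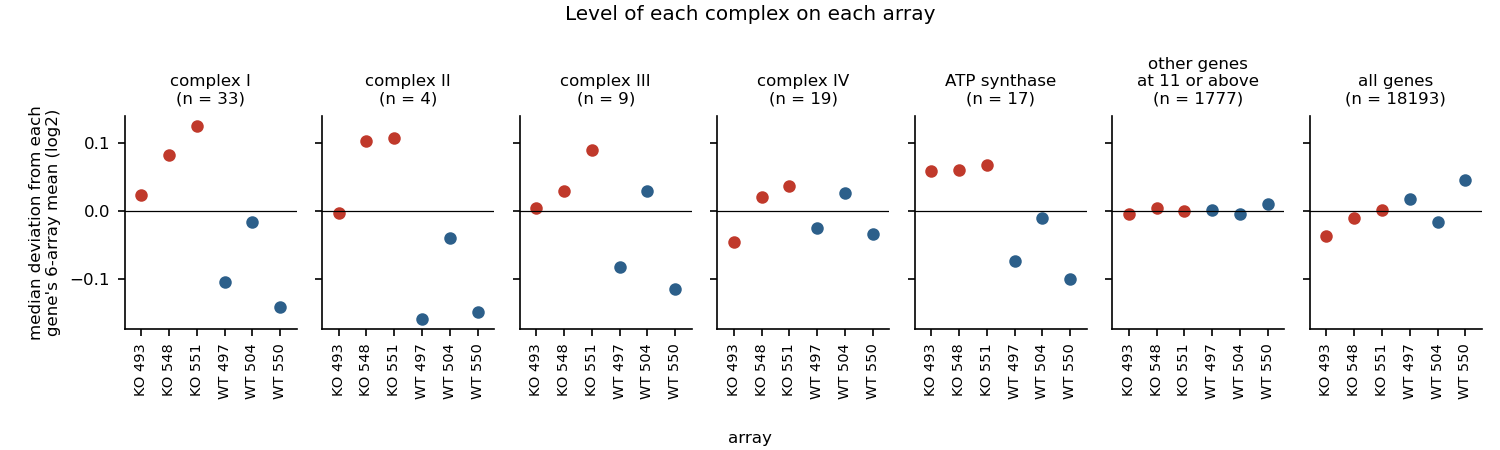
Median deviation from each gene's mean over 6 arrays (y axis, log2 units) on each array (x axis; KO red, WT blue) for the 5 complexes, for the 1777 other genes with a mean of 11 or above, and for all 18193 genes. KO and WT arrays separate for complexes I and II and ATP synthase, overlap for complexes III and IV, and lie within 0.01 of 0 in the other bright genes.

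Ndufb2 and Atp5h had the lowest and highest differences, each set by a single array. Atp5h, a subunit of the stalk, read 14.12 in KO 493 and 12.20 and 12.20 in KO 548 and 551, against 12.22, 12.19 and 12.09 in WT. Its difference was 0.67 ± 0.50 (limma adjusted p = 0.494) and 0.03 without KO 493, and its second probe set gave 0.07. Ndufb2, a membrane-arm subunit of complex I, read 10.99, 11.13 and 11.27 in KO against 10.81, 13.90 and 10.79 in WT. Its difference was -0.70 ± 0.80 (limma adjusted p = 0.668), and 0.33 without WT 504. The next probe set gave 0.21, and it was WT 504 that made the first one the brightest.

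A probe set was counted as departing where 1 array lay over 1.5 from the mean of the other 5, which themselves spanned at most 0.6. That held for 86 of the 45037 probe sets, 65 upward and 21 downward, on every array, with 8 on KO 551 and 22 on WT 497. These were the only 2 among the 165 probe sets of subunit genes. Without both genes the other 80 ranged from -0.51 to 0.63 and the median stayed at 0.11.

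**Figure D4:**
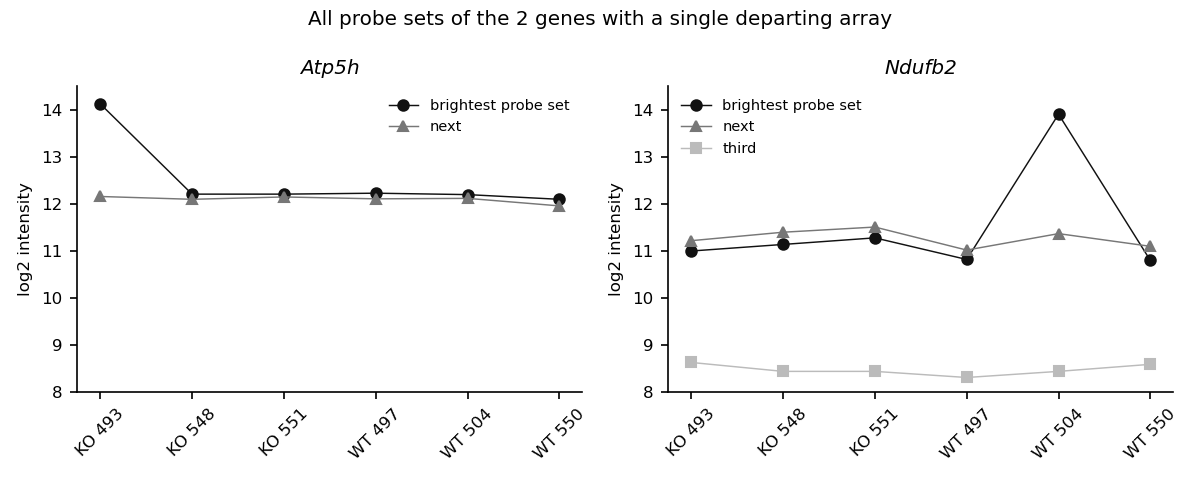
Log2 intensity (y axis) of every probe set of Atp5h (left, 2 probe sets) and Ndufb2 (right, 3 probe sets) on each array (x axis, KO then WT); lines join the values of a probe set. The brightest probe set of Atp5h reads 14.12 on KO 493 and that of Ndufb2 reads 13.90 on WT 504. The next probe set of Atp5h reads 12.15 on KO 493, against 12.09 and 12.14 on KO 548 and 551. That of Ndufb2 reads 11.36 on WT 504, against 11.01 and 11.09 on WT 497 and 550.

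Among the 45 subunit genes with at least 2 probe sets at or above the median level of all probe sets, the differences had the same sign in 36 and opposite signs in 9. In 36 they lay within 0.2 of each other. Subunit genes have many processed pseudogenes and probe sets may share sequence with them, so agreement between probe sets is no independent check.

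Chromosome 11, which carries the deleted locus, holds 4 subunit genes and none was called. Counted in measured genes, Uqcr10 lies 667 before the locus and Uqcrq 395 before it, Atp5g1 230 after it and Atp5h 579 after it. Uqcr10, a small complex III subunit, had 11.33, 11.31 and 11.37 in KO against 11.21, 11.31 and 11.15 in WT, at 0.11 ± 0.10. Uqcrq, the ubiquinone-binding protein, had 10.81, 10.76 and 10.98 in KO against 10.63, 10.81 and 10.66 in WT, at 0.15 ± 0.11. Both overlapped.

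Other lists of mitochondrial genes that build or feed the chain had medians from 0.04 to 0.22, and differences between lists were not tested. Of 48 measured assembly factors, which insert cofactors and join subunits, 39 were above 0, with a median of 0.17 and 0 called. Of 25 genes of protein import, 24 were above 0, with a median of 0.19 and 0 called. The 24 genes of the tricarboxylic acid cycle and pyruvate dehydrogenase had a median of 0.22, with 19 above 0 and 0 called; the median was 0.15 with all probe sets of a gene averaged.

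Of 12 coenzyme Q synthesis genes 9 were above 0, with a median of 0.16, and of 17 electron and nucleotide carriers 9 were above 0, with a median of 0.04; neither list had a call. Unadjusted p-values under 0.05 with KO higher were found for 14 assembly factors (29.2%), 5 import genes (20.0%), 7 cycle genes (29.2%), 4 coenzyme Q genes (33.3%) and 2 carriers (11.8%), against 8.34% of all genes. With KO lower there was 1, an assembly factor (2.08%), against 12.7% of all genes. With the intensity trend and robust prior, 4 assembly factors, 2 import genes, 1 cycle gene, 1 carrier and 0 coenzyme Q genes passed, all higher in KO, against 2.37% of all genes.

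Atpaf1, which chaperones the beta subunit of ATP synthase, had 9.47, 9.58 and 9.57 in KO and 8.69, 8.90 and 8.77 in WT. The groups lay far apart, by 0.75 ± 0.11, with a limma adjusted p of 0.0522. Pmpcb, the catalytic subunit of the protease that removes import signals, had 10.58, 10.63 and 10.61 in KO and 9.79, 10 and 9.79 in WT. Its difference was also 0.75 ± 0.11 (limma adjusted p = 0.0542).

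Cox10, which makes haem O for complex IV and lies on chromosome 11, had 8.67, 9.33 and 9.11 in KO against 7.87, 7.89 and 8.24 in WT. No KO array reached down to WT, and the difference was 1.04 ± 0.20 (limma adjusted p = 0.0832). Smaller differences with non-overlapping groups were seen in Pdhx, a pyruvate dehydrogenase component (0.43), Pdk3, a kinase of that complex (0.40), Timm21 of the inner-membrane import channel (0.42), Etfdh, which feeds electrons to coenzyme Q (0.32), Vdac2 of the outer membrane (0.26), and the coenzyme Q enzymes Coq3 (0.67) and Coq6 (0.29). None of these passed. With the intensity trend and robust prior, Atpaf1 (adjusted p = 0.00866), Pmpcb (0.00355), Cox10 (0.0212), Pdk3 (0.0386), Timm21 (0.0495) and Vdac2 (0.0493) did, and the first 4 also passed in limma with dim probe sets filtered out or with a pseudocount of 16.

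Of 27 regulators of mitochondrial gene expression 14 were above 0 and 13 below, with a median of 0.00, and Tfb2m was called. Tfb2m, which helps the mitochondrial RNA polymerase start transcription, had 9.27, 9.15 and 9.44 in KO and 8.26, 8.37 and 8.38 in WT. The groups were widely separated, and Tfb2m rose by 0.95 ± 0.12 (limma adjusted p = 0.0365). The call did not hold with an ordinary equal-variance test (adjusted p = 0.0746) or without any 1 array (limma adjusted p = 0.0950 to 0.126), while the difference stayed between 0.87 and 1.02. Unadjusted p-values were under 0.05 for 4 regulators with KO higher (14.8%, against 8.34% of all genes) and 3 with KO lower (11.1%, against 12.7%). All but Tfb2m were named after their values were seen. Beside Tfb2m, those with KO higher were Gabpa (0.27 ± 0.10), Polrmt (0.30 ± 0.13) and Creb1 (0.28 ± 0.11), with limma adjusted p-values of 0.222 to 0.249. The 3 with KO lower were Ppargc1a, Polg2 and Esrra. Ppargc1a, a coactivator of mitochondrial biogenesis, differed by -0.66 ± 0.21. Polg2, the accessory subunit of the mitochondrial DNA polymerase, differed by -0.39 ± 0.12, and Esrra, a nuclear receptor, by -0.34 ± 0.10. In each, every KO array was below every WT array, and limma adjusted p-values were 0.148 to 0.174. That order held for 5 of the 27 regulators (18.5%), against 16.2% of all genes. Ppargc1a had 4.32, 4.19 and 4.24 in KO against 4.88, 5.35 and 4.50 in WT. Its KO mean of 4.25 lay under the 25th percentile of each KO array (4.30 to 4.34), so its KO level is not distinguished from background.

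Of subunits encoded in mitochondrial DNA, 1 of 13 was measured. ND5 of complex I had 12.01, 11.97 and 12.04 in KO against 12.14, 12.16 and 12.08 in WT, at -0.12 ± 0.09 (limma adjusted p = 0.518). Every KO array was below every WT array, the opposite order to most of the 82 subunit genes that did not overlap.

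**Figure D5:**
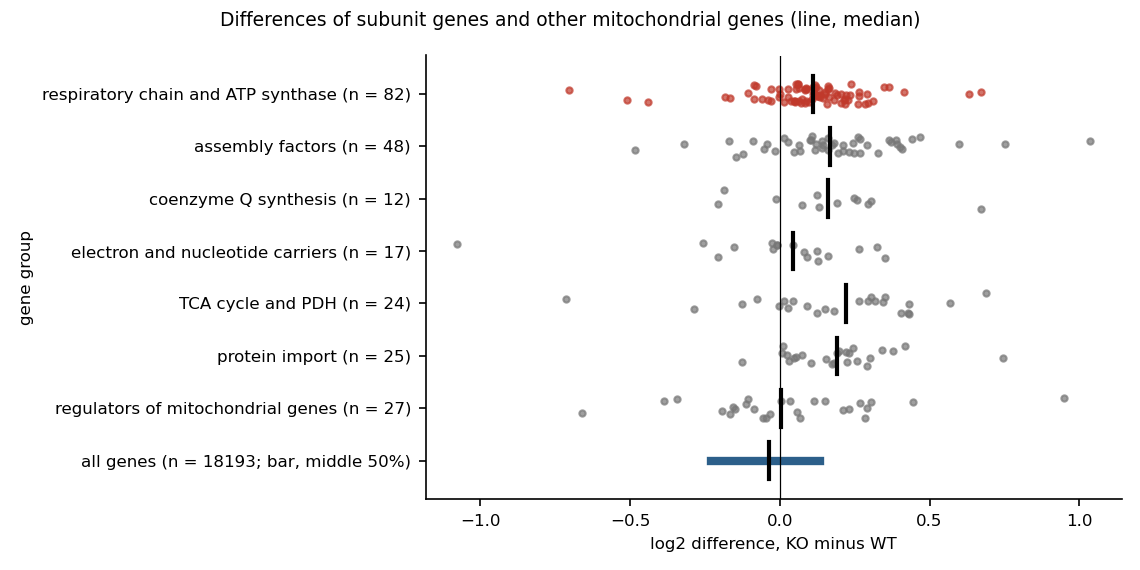
Log2 difference, KO minus WT (x axis), of each gene (points) with the median of its group (black line), for the 82 subunit genes (red), 6 lists of other mitochondrial genes (grey), and all 18193 genes (bar, middle 50%). Medians lie between 0.11 and 0.22 for subunits, assembly factors, coenzyme Q synthesis, import and the tricarboxylic acid cycle, near 0 for carriers and regulators, and at -0.04 for all genes.

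Other measures moved with genotype and stand beside every result above. Erythroid markers were bright in both groups, with a mean log2 intensity over 9 of 12 genes of 12.14, 12.12 and 12.04 in KO and 12.27, 12.20 and 12.29 in WT. Of these 9 genes 8 were below 0, with a median of -0.11 and 0 called. Every KO array lay below every WT array in 5 (55.6%). That order held for 16.2% of all genes and 20.8% of the 1777 non-subunit genes with a mean of 11 or above. Markers of other blood cells were measured for 52 genes, of which 43 were below 0, with a median of -0.38 and 0 called. Their direction was not uniform: all 8 eosinophil, basophil and mast cell markers were below 0 (median -0.72), and 5 of 8 megakaryocyte and platelet markers above 0 (median 0.10). The mean level over the 52 was 8.81, 8.84 and 8.81 in KO and 9.41, 9.13 and 9.10 in WT, and none lay under the 25th percentile. In sorted bulk cells, fewer cells of a type and less RNA per cell cannot be told apart.

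The 3′ minus 5′ signal of beta-actin, a sign of RNA or labelling quality, was 1.82, 1.82 and 1.86 in KO and 1.65, 1.65 and 1.67 in WT. That of Gapdh was 1.04, 1.05 and 1.0 in KO and 1.09, 1.03 and 1.04 in WT, with overlap. Array medians were 5.65, 5.62 and 5.68 in KO and 5.78, 5.73 and 5.77 in WT. The part of these measures in the subunit differences was not tested.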

How the data were processed

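RNA of sorted erythroblasts from 3 KO and 3 WT mice was measured on 6 arrays, grouped by sample title. The deposited values were linear intensities, 1 per probe set, which the authors had computed by RMA, per the submitters' processing notes; software, version and background step are not given in the sources used here. The deposited numbers were all (100%) 2 raised to an exponent of 2 decimals (tolerance 0.005), and this exponent, the log2 intensity, was used without pseudocount or further normalization. RMA pulls arrays toward 1 distribution, which can remove a shift shared by most transcripts.

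The table held 45101 probe sets; 64 controls were left out and 45037 tested. The platform annotation gave 34945 of these 1 gene, 932 several and 9160 none; 99.1% of genes matched RefSeq. A gene was read from its probe set with the highest mean over 6 arrays. Differences were tested by lmFit and eBayes on genotype alone (limma 3.58.1, R 4.3.3), with p-values adjusted by Benjamini-Hochberg over all 45037 probe sets and a threshold of 0.05. Named genes were all called ones, the 5 smallest p-values and both extremes of each complex, a fixed set, the chromosome 11 genes and, per list, up to 3 called or else the 2 smallest p-values. Members and lists were chosen with earlier results of these data known. The number of arrays limits precision.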

Additional observations from a re-analysis of the deposited data

How the results depend on the processing

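The number of subunit genes called higher in KO was 0, but 8 with limma's intensity trend and robust prior, 1 with dim probe sets filtered out (mean log2 under 5.70) and 1 with a pseudocount of 16; the 1 was Atp5g2 both times. The number called lower was 0 in every alternative run. Quantile and cyclic loess normalization of the arrays and other choices of probe set kept the medians of all subunit genes and of complexes I, II, III and V above 0. The ordinary test and the intensity trend leave every difference as it was, so they cannot move a median or a sign. The complex IV median was -0.032 without KO 551. The coenzyme Q median was 0.20 after quantile normalization and the carrier median -0.01 with all probe sets of a gene averaged. Leaving out each array in turn gave medians of 0.09 to 0.15 for all subunits, 0.12 to 0.21 for complex I, 0.18 to 0.25 for complex II, 0.08 to 0.16 for complex III, -0.032 to 0.047 for complex IV, 0.09 to 0.13 for ATP synthase, 0.15 to 0.22 for assembly factors, 0.14 to 0.24 for import, 0.15 to 0.27 for the tricarboxylic acid cycle, 0.13 to 0.21 for coenzyme Q synthesis, -0.0083 to 0.057 for carriers and -0.023 to 0.08 for regulators. The cause of these shifts was not tested. The count above 0, an alternative chosen after seeing the data, ran from 64 of 82 (78.0%; averaged probe sets, or without KO 551, WT 497 or WT 550) to 73 of 82 (89.0%; without WT 504); quantile normalization gave 70 of 82 with 52.6% of all genes above 0. Of 854 values of single named genes under the alternatives, 799 kept sign and side of the threshold and 0 reversed a call; the 7 calls lost were all of Tfb2m, 22 passed only under an alternative, and 26 without a call changed sign or moved from 0 to below it. No paired analysis was possible because no title number occurs in both groups. Groups of 3 arrays are too small for a test of outlying samples.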
